A study of Mus musculus with 12 samples.

Results

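Gene expression in the diaphragm of *Cox6a2*-/- (KO) mice was compared with that on 3 arrays whose labels give wild type (WT) and diaphragm. The comparison held 6 of the 12 arrays of the series, 3 per group, chosen by genotype and tissue label, and covered 19938 genes. All mice were males of the strain labelled C57Bl6, aged 10 to 12 weeks. The KO mice lacked *Cox6a2* in every tissue, as the deletion is not tied to a cell type, and the methods name age- and sex-matched C57BL/6J mice from a commercial supplier, not littermates, as WT controls. The mice received a regular diet. The other 6 arrays, 3 of WT and 3 of KO gastrocnemius, served as a reference for what hindlimb muscle looks like on this array. The labels call the arrays of a group biological replicates, but do not say more about the animals. Values are log2 signals, so that a difference of 1 is a 2-fold difference, and each difference below is KO diaphragm minus the arrays labelled WT diaphragm unless another pair is named. A gene was called at a Benjamini-Hochberg adjusted p under 0.05 in limma, over all genes.

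The deleted gene was at 7.02, 6.71 and 6.94 in replicates 1, 2 and 3 of KO diaphragm and at 11.84, 11.75 and 12.06 on the arrays labelled WT diaphragm. The groups did not overlap (p = 0.1 in a two-sided exact permutation test, which cannot go lower with 3 arrays in each group), and *Cox6a2* was lower on average (log2 difference -5.00, SE 0.127, adjusted p = 7.2e-12). Thus the genotype labels hold for these 6 arrays. The tissue label is another matter. Across all genes, r between arrays labelled WT diaphragm and arrays of WT gastrocnemius was 0.989 to 0.992, and 0.988 to 0.991 for KO gastrocnemius, but only 0.963 to 0.975 for KO diaphragm. Arrays within KO diaphragm correlated at 0.990 to 0.992. Between the WT arrays of the 2 muscle labels, 92 genes were called (0.461% of genes; 59 higher and 33 lower on the arrays labelled diaphragm, and 2577 at an unadjusted p under 0.05). For this reason these arrays are named by their label throughout, and what they were taken from was not established.

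The diaphragm is the sheet of muscle that drives breathing. It is derived from cervical segments, works without rest, and holds few of the glycolytic type IIB fibers that dominate the gastrocnemius. Its surfaces carry a mesothelium, a thin epithelium, and beneath it lymphatic vessels that drain the peritoneal cavity, together with small clusters of fat and immune cells. The gastrocnemius is a hindlimb muscle with none of this covering. *Hox* genes keep a record of body position in adult tissue: genes at the end of each cluster with high numbers mark the posterior body and hindlimb, those with middle numbers the neck and upper trunk. COX6A2, finally, is the heart and skeletal muscle form of a small subunit of cytochrome *c* oxidase, complex IV of the respiratory chain, and COX6A1 is its counterpart in other tissues. As tissue was measured in bulk, fewer cells of a type and less RNA per cell cannot be told apart.

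The miRNAs of the miR-196 family lie within the *Hox* clusters and are shown because genes of these clusters bear on the tissue label. The mature sequences (RefSeq, GRCm38.p6) share their seed, bases 2 to 8, given in capitals. They come from *Mir196a-1* at chr11:96265187-96265208 on the plus strand, *Mir196a-2* at chr15:102973365-102973386 on the plus strand and *Mir196b* at chr6:52230129-52230150 on the minus strand.
miR-196a-5p: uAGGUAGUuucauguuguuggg
miR-196b-5p: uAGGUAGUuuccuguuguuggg
The arrays measure RNA of the hairpin genes, not the mature miRNAs. *Mir196a-2*, in the cluster of *Hoxc10*, was at 4.23, 4.28 and 4.32 on the arrays labelled WT diaphragm, against 3.65, 3.77 and 3.44 in KO diaphragm. It was lower without overlap (log2 difference -0.66, SE 0.14, adjusted p = 0.00264), and *Mir196b* was called lower too (-0.46, SE 0.118, adjusted p = 0.00897). *Mir196a-1* was at 0.01 (adjusted p = 0.966), and *Mir10a* (-0.01), *Mir10b* (-0.17) and *Mir615* (-0.30), 3 other miRNA genes of the *Hox* clusters, were not called. Between KO diaphragm and KO gastrocnemius, *Mir196a-2* had -0.60 (adjusted p = 0.00481), and *Mir196b* was not called (-0.28, adjusted p = 0.0892). Signals of *Mir196a-2* and *Mir196b* lay below the array medians, which were 5.64 to 5.73. These 6 genes were listed after other values had been seen.

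The stretch before the start of *Myh4*, which encodes the type IIB myosin heavy chain, is shown because this gene had one of the largest differences of all. It covers 250 bases at chr11:67237562-67237811 on the plus strand (RefSeq, GRCm38.p6), with capitals for 2 motifs searched on both strands that do not overlap each other here, CAGCTG, a palindromic E-box read by myogenic factors, and TATAAA, the TATA box.
Myh4: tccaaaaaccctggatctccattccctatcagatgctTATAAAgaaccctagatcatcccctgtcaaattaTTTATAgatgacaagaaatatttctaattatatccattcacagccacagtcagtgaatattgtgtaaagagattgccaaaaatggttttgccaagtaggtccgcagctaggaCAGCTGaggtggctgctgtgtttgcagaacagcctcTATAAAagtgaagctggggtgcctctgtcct
Counted from the start, the E-box began at position -67 and the nearest TATA box at -31. Of all 27025 such stretches, 12.8% held CAGCTG and 13% held TATAAA. Among the 15 genes with the largest negative differences, 10 could be matched, and CAGCTG was found in 4 of them (*Myh4*, *Mybph*, *Mylk4* and *Slc38a4*). Among the 15 with the largest positive differences, 7 could be matched and 1 held it (*Cxcl13*). The motif AAGGTCA, read by estrogen-related receptors, was found in 4.05% of all stretches and, of these matched genes, in *Mylk4* and *Jchain*.

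Genes of body position and of the mesothelium separated KO diaphragm from the other 9 arrays. *Hoxc10*, a gene of the hindlimb, was at 8.62, 8.75 and 8.68 on the arrays labelled WT diaphragm, against 4.53, 3.82 and 4.18 in KO diaphragm, and its mean was 8.44 in WT and 8.53 in KO gastrocnemius. Its log2 difference was -4.51 (SE 0.138, adjusted p = 4.67e-11), whereas KO and WT gastrocnemius differed by 0.09 (adjusted p = 0.787). Of 19 hindlimb and posterior position genes, 11 were lower in KO diaphragm and none was higher, where 11.2% of all genes were called lower and 16.3% higher; their median difference was -0.81, beside -0.04 over all genes. *Hoxd8* had a log2 difference of -2.92, *Hoxd10* of -1.56 and *Hoxc9* of -1.46. In KO diaphragm against KO gastrocnemius, 12 of the 19 were lower, where 11.2% of all genes were called lower and 17.7% higher. Of 13 measured cervical and anterior genes, 4 were higher: *Hoxa5*, at 6.20, 6.16 and 6.34 on the arrays labelled WT diaphragm, against 8.03, 7.77 and 7.70 in KO diaphragm (1.60, SE 0.137, adjusted p = 1.35e-06), *Hoxc5* (0.67), *Hoxc4* (0.56) and *Hoxb4* (0.48). On the arrays labelled WT diaphragm *Hoxa5* lay close to the 6 gastrocnemius arrays, which spanned 5.59 to 6.20.

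All 16 mesothelial markers measured were higher in KO diaphragm, with a median of 1.85. The mean of the list was 5.45, 5.52 and 5.47 on the arrays labelled WT diaphragm and 7.32, 7.998 and 7.69 in KO diaphragm, and between 5.41 and 5.69 on the 6 gastrocnemius arrays. *Gpm6a*, a membrane glycoprotein, had a difference of 4.19 (SE 0.179, adjusted p = 1.52e-09). The uroplakins *Upk1b* and *Upk3b* had differences of 4.03 and 3.90, and *Lrrn4* of 3.37. *Wt1*, the transcription factor of developing mesothelium, was at 5.51, 5.55 and 5.34 on the arrays labelled WT diaphragm, against 6.81, 7.47 and 6.95 in KO diaphragm (1.61, adjusted p = 2.65e-06), and *Gata4* (0.49) and *Zfpm2* (0.81), which are required to form the diaphragm, were called higher. These were 3 of 10 diaphragm development genes measured; the other 7 were not called, and the median of the list was -0.08. The defining markers of the mesothelium were thus near the levels of hindlimb muscle on the arrays labelled WT diaphragm. Whether a difference below belongs to the knockout or to the muscle cannot be told apart from these 6 arrays, so that counts between KO diaphragm and KO gastrocnemius, which hold no WT array, are given for most lists beside the main ones. These comparisons share the KO diaphragm arrays, and that one holds the difference between muscles by design.

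**Figure D1:**
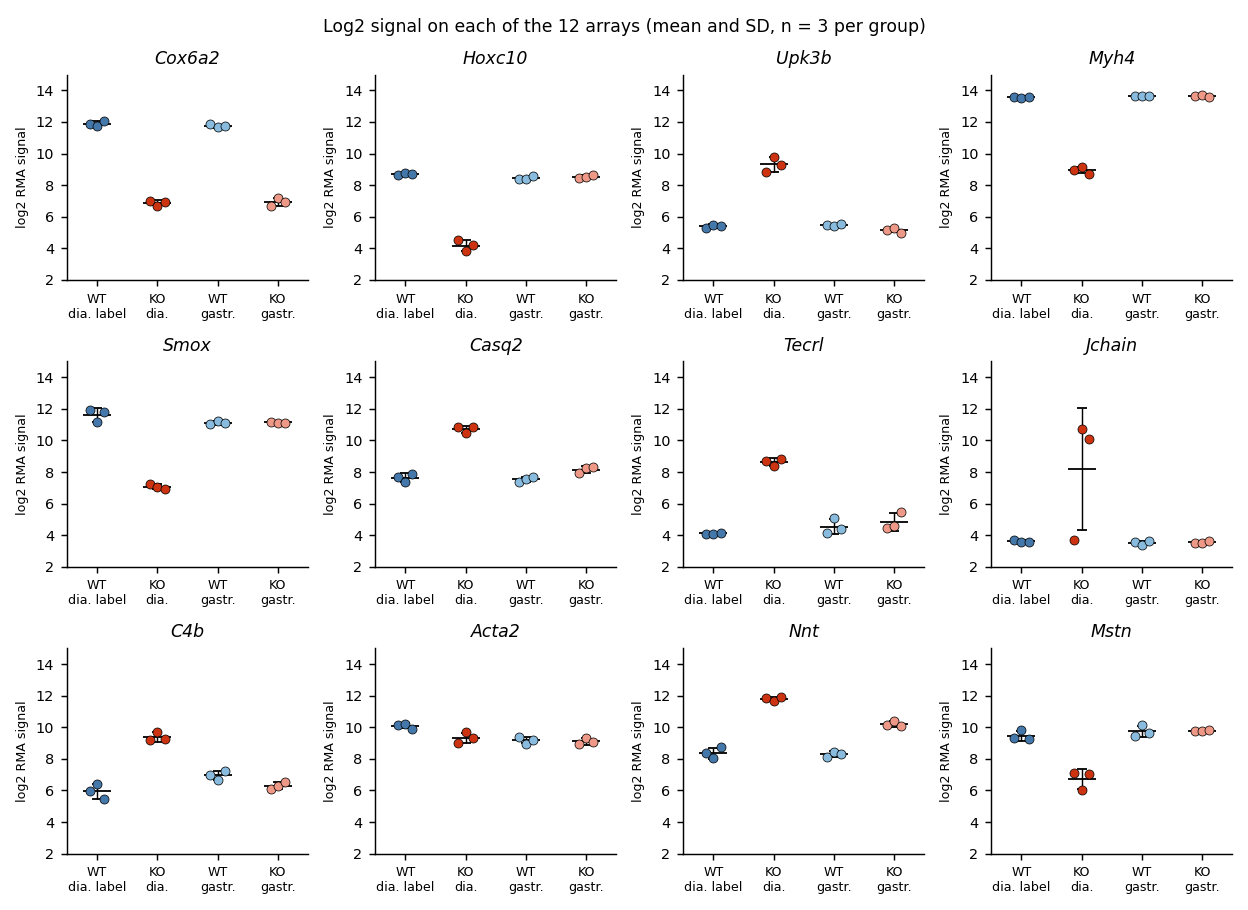
Log2 RMA signal (vertical axes) of 12 genes on each of the 12 arrays, grouped by label on the horizontal axes (dia., diaphragm; gastr., gastrocnemius); each point is 1 array, with the group mean as a short line and the SD as a bar (n = 3). *Cox6a2* separates the genotypes, *Hoxc10*, *Myh4*, *Smox* and *Mstn* are low and *Upk3b*, *Casq2*, *Tecrl* and *C4b* are high only on the KO diaphragm arrays, *Jchain* is high on 2 of these 3 arrays, *Acta2* is highest on the arrays labelled WT diaphragm, and *Nnt* is higher in both KO groups.

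KO diaphragm had 3258 genes (16.3%) called higher and 2238 (11.2%) called lower. The balance between the directions moved with the scaling of the arrays: 59.3% of the calls were higher with the deposited values, 49.6% after quantile normalization (2812 higher and 2863 lower) and 41% after centring each array on its median (2667 higher and 3836 lower). Centring moved the median of all genes from -0.04 to -0.12. Small differences in either direction are therefore relative to the scaling. Of the called genes, 600 were higher and 231 lower by more than 2-fold, 74 and 54 by more than 4-fold, and 17 and 16 by more than 8-fold. The arrays of the groups did not overlap for 8600 genes (43.1%).

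For the called genes it was asked which of the 2 groups stood apart from the rest of the series. For 3714 of the 5496 called genes (67.6%), the 3 KO diaphragm arrays lay beyond all other 9 arrays and the arrays labelled WT diaphragm did not. Of these genes, 2397 were higher and 1317 lower. They include genes for which the arrays labelled WT diaphragm lay between gastrocnemius and KO diaphragm, so the count does not show that these arrays matched gastrocnemius. Over all genes, called or not, the KO diaphragm arrays lay beyond the other 9 for 4675 (23.4%). The arrays labelled WT diaphragm alone stood apart for 301 called genes (5.48%), 94 of them higher in KO diaphragm and 207 lower, and lay beyond the other 9 for 722 of all genes (3.62%). Both groups stood apart, on opposite sides of the gastrocnemius, for 176 called genes (3.2%), and neither did for 1305 (23.7%). Both KO groups lay on one side of both WT-labelled groups for 477 called genes (8.68%), and for 648 of all genes (3.25%).

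**Figure D2:**
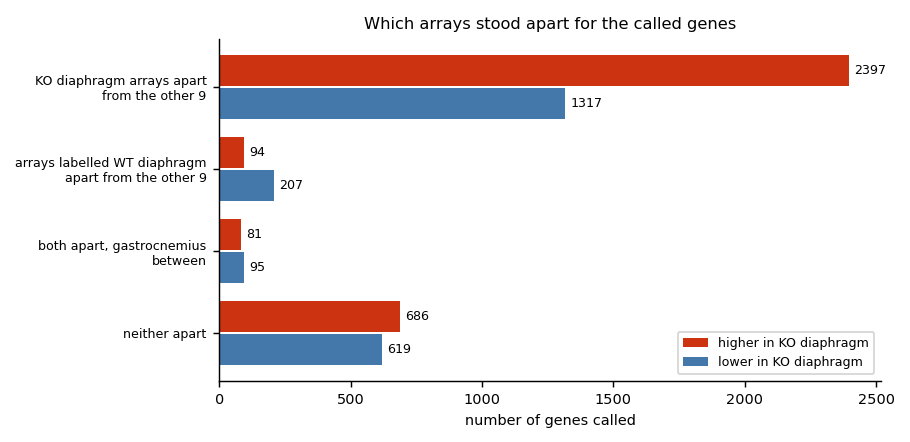
Number of called genes (horizontal axis) by which arrays stood apart from the other 9 (vertical axis), split by direction in KO diaphragm (red, higher; blue, lower). The KO diaphragm arrays alone stood apart for 2397 higher and 1317 lower genes, and the arrays labelled WT diaphragm alone for 94 and 207.

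The genes for which the arrays labelled WT diaphragm stood apart alone were chosen after their values had been seen. *Ucp3*, a mitochondrial carrier of muscle that is regulated with fat use, was at 10.49, 10.22 and 10.14 on these arrays, at 7.95, 7.41 and 8.76 in KO diaphragm, and between 8.67 and 9.77 on the 6 gastrocnemius arrays. Its difference was -2.24 (SE 0.305, adjusted p = 7.89e-05), and that between KO diaphragm and KO gastrocnemius -1.33 (adjusted p = 0.00427). *Rcan1*, an inhibitor of calcineurin, was at 10.18, 9.93 and 10.08 on the arrays labelled WT diaphragm, against 9.08, 9.24 and 9.16 in KO diaphragm (-0.90, adjusted p = 2.36e-04), with 0.03 between KO diaphragm and KO gastrocnemius. It was also higher on these arrays than in WT gastrocnemius, by 0.85 (adjusted p = 0.0147). *Irs1*, an adaptor of the insulin receptor, had a difference of -0.98 and *Lonrf3* of -0.92. In the other direction, *Klf2*, a factor of endothelial cells under flow, had a difference of 1.11 (adjusted p = 1.08e-05) with 0.16 between KO diaphragm and KO gastrocnemius, and it was higher in KO than in WT gastrocnemius too (0.63, adjusted p = 0.0319). The lipogenic genes *Scd2* (1.05) and *Insig1* (1.04) were likewise lowest on the arrays labelled WT diaphragm.

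For 4 of 14 smooth muscle and pericyte markers, too, the arrays labelled WT diaphragm stood apart alone. *Acta2*, smooth muscle actin, was at 10.14, 10.22 and 9.91 on the arrays labelled WT diaphragm, against 9.02, 9.69 and 9.29 in KO diaphragm, and the 6 gastrocnemius arrays lay between 8.92 and 9.39. It had a difference of -0.75 (SE 0.163, adjusted p = 0.00311), *Myh11*, smooth muscle myosin, of -0.82 and *Tagln* of -0.78. Of the 14 markers, 4 were lower and 2 higher, *Rgs5* of pericytes (0.48) and *Smtn* (0.38). With KO gastrocnemius as the reference, none of the 14 was lower and 4 were higher. The arrays labelled WT diaphragm were above WT gastrocnemius for *Acta2* (adjusted p = 0.0296) and *Myh11* (adjusted p = 0.014), but not called so for *Tagln* (0.70, adjusted p = 0.0605).

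Among genes of the contractile apparatus, those of the fastest fibers were lower and those of slow and IIA fibers higher. *Myh4* was at 13.60, 13.50 and 13.59 on the arrays labelled WT diaphragm, against 8.99, 9.15 and 8.74 in KO diaphragm (-4.61, SE 0.1, adjusted p = 1.5e-12), and the gap to KO gastrocnemius was -4.68. Of 10 myosin heavy chain genes, 6 were higher and 2 lower. *Myh7*, the slow form, was at 10.42, 10.12 and 10.94 on the arrays labelled WT diaphragm, against 11.79, 11.87 and 12.07 in KO diaphragm (1.41, adjusted p = 4.84e-04). *Myh1*, the IIX form, had a difference of 0.84 and *Myh2*, the IIA form, of 0.74. *Myh13*, a superfast form of eye muscles, was lower (-0.78). Of 17 genes of the fast sarcomere and sarcoplasmic reticulum, 15 were lower and 1, *Myh1*, higher; the median was -0.75. *Actn3*, the actinin of fast fibers, differed among the KO arrays, at 8.14, 9.20 and 9.59, but these lay far below 13.45, 13.34 and 13.42 on the arrays labelled WT diaphragm (-4.43, SE 0.242, adjusted p = 1.74e-08). *Mybph*, a myosin-binding protein, was at 11.54 on replicate 1 of the arrays labelled WT diaphragm and at 9.84 and 9.73 on the others, and at 7.31, 7.02 and 7.16 in KO diaphragm (-3.21). Of 14 genes of the slow sarcomere and sarcoplasmic reticulum, 11 were higher and none lower. *Sln*, sarcolipin, which uncouples the calcium pump, was at 4.81, 5.22 and 5.29 and at 7.13, 6.64 and 7.20 in the same order of groups (1.89, SE 0.161, adjusted p = 1.28e-06). *Casq2*, the calcium-binding protein of the slow calcium store, had the largest difference of the list, 3.06. Between KO diaphragm and KO gastrocnemius 10 of the slow genes were higher and 15 of the fast genes lower.

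Regulators of fiber type were split, with 7 of 26 higher and 7 lower. *Eya4*, a cofactor of homeobox factors in fast fibers, was at 9.52, 9.96 and 9.15 on the arrays labelled WT diaphragm, against 6.40, 6.33 and 6.78 in KO diaphragm (-3.04, SE 0.213, adjusted p = 1.9e-07). *Maf*, of the large MAF factors that drive *Myh4*, had a difference of -1.65. Higher were *Ppara* (1.31) and *Esrrb* (1.25), nuclear receptors of oxidative metabolism, and *Prox1* (1.10), which is expressed in slow fibers and in lymphatic endothelium.

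Genes of membrane excitability and calcium release mostly lay lower in KO diaphragm: 13 of 21 were lower and 2 higher, with a median of -0.76, and the counts were the same between KO diaphragm and KO gastrocnemius. *Cacng1*, a subunit of the muscle calcium channel, was at 10.80, 11.05 and 10.77 on the arrays labelled WT diaphragm, against 8.48, 8.42 and 8.05 in KO diaphragm (-2.56, SE 0.116, adjusted p = 2.57e-09). The beta subunits of the sodium pump moved apart. *Atp1b2* was lower, from 10.74, 11.11 and 10.47 to 7.37, 7.36 and 7.47 (-3.37, SE 0.139), and *Atp1b1* was higher (0.84, SE 0.121). *Jph1*, a junctophilin that ties the membrane to the calcium store, had a difference of -1.36 and the potassium channel *Kcnc4* of -1.29, whereas the calcium-activated potassium channel *Kcnn3* had one of 1.22. Of 17 genes of the neuromuscular junction, 5 were higher, among them *Colq* (1.07), the collagen tail of acetylcholinesterase, and *Agrn* (0.93), the nerve signal that clusters receptors. Lower were *Musk*, the kinase that agrin acts through (-1.46), *Ache*, acetylcholinesterase itself (-0.75), and 2 more. Of 15 myogenic and satellite cell genes, 3 were higher and 4 lower. *Myf6* (-1.26) and *Myod1* (-1.12) were lower and *Pax3* (1.27), a factor of muscle precursors that the diaphragm keeps, was higher. *Myod1* had -0.18 (adjusted p = 0.353) between KO diaphragm and KO gastrocnemius and *Pax3* 1.44.

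The largest difference among genes of lactate and glucose handling was that of *Slc16a3*. *Slc16a3*, the transporter by which glycolytic fibers release lactate, was at 10.95, 10.82 and 10.97 on the arrays labelled WT diaphragm, against 6.38, 6.82 and 6.31 in KO diaphragm (-4.41, SE 0.131, adjusted p = 4.09e-11). *Slc16a1*, the transporter of fibers that take it up, was higher, from 9.37, 9.01 and 9.21 to 10.43, 10.24 and 10.31 (1.13, SE 0.111). *Ldhb*, the heart form of lactate dehydrogenase, was higher by 2.07. Of 20 genes of this list, 8 were lower and 4 higher, and between KO diaphragm and KO gastrocnemius 9 and 3. The enzymes that set the level of fructose 2,6-bisphosphate, an activator of glycolysis, were lower: *Pfkfb3* (-2.49) and *Pfkfb4* (-2.05). So was *Gpd2*, which carries reducing equivalents into the mitochondrion (-2.38).

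The polyamine enzyme spermine oxidase, *Smox*, was at 11.93, 11.13 and 11.80 on the arrays labelled WT diaphragm, against 7.24, 7.04 and 6.92 in KO diaphragm (-4.56, SE 0.162, adjusted p = 2.59e-10). *Odc1*, ornithine decarboxylase, which begins polyamine synthesis, was lower too, from 11.16, 11.20 and 11.24 to 8.94, 9.05 and 9.04 (-2.19, SE 0.145). In contrast, *Sat1*, which acetylates polyamines, was called higher (0.56). Of 8 measured polyamine genes, 3 were lower and 1 higher. Of 13 genes that buffer adenylates and creatine phosphate, 6 were lower and 3 higher, but without 1 array the number lower ranged from 2 (without KO replicate 1 or 2) to 6. *Ampd1*, AMP deaminase of fast muscle, had a difference of -1.50, *Gamt*, of creatine synthesis, of -0.65, and *Ckmt2*, the mitochondrial creatine kinase, of 0.95.

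Use of ketone bodies and branched-chain amino acids was the metabolic list with the highest share of calls: 19 of 21 measured genes were higher and none lower, with a median of 0.55. *Oxct1*, the enzyme by which tissues burn ketone bodies, was at 10.65, 10.23 and 10.84 on the arrays labelled WT diaphragm, against 11.79, 11.54 and 11.82 in KO diaphragm (1.14, SE 0.153, adjusted p = 6.77e-05). *Bdh1*, the enzyme before it, had a difference of 1.22. *Ppm1k*, the phosphatase that activates breakdown of branched-chain amino acids, was higher by 1.45 and *Mccc1*, of leucine breakdown, by 1.00. In KO diaphragm against KO gastrocnemius, 14 of the 21 were higher and none lower. Between KO and WT gastrocnemius 1 of the 21 was called higher, where 0.406% of all genes were called higher and 0.186% lower.

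Lipid droplet and lipolysis genes were higher in 17 of 20 cases, with a median of 1.02, and none was lower; between KO diaphragm and KO gastrocnemius 18 were higher. The list means of KO replicates 1, 2 and 3 were 9.55, 9.80 and 9.37. White adipocyte markers, described below, were raised on the same arrays and likewise highest on replicate 2, 5 of the 20 genes are also in that list, and the part of fat cells in this count was not tested. *Plin3*, a droplet coat protein, was at 8.32, 7.79 and 8.34 on the arrays labelled WT diaphragm, against 10.38, 9.87 and 9.99 in KO diaphragm (1.93, SE 0.157, adjusted p = 8.1e-07). *Dgat2*, of triglyceride synthesis, had a difference of 1.57, with -0.93 between KO and WT gastrocnemius (adjusted p = 0.0741). *Agpat2* was at 8.64, 9.49 and 8.15 in KO diaphragm, highest on replicate 2, and between 6.64 and 6.92 on the arrays labelled WT diaphragm (1.98).

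Of 16 genes of complex IV, 12 were higher and 1, *Cox6a2*, lower, with a median of 0.50; between KO diaphragm and KO gastrocnemius 6 were higher, with a median of 0.24. *Cox6a1*, the form of the deleted subunit in other tissues, was at 7.97, 7.21 and 7.68 on the arrays labelled WT diaphragm, against 8.33, 8.32 and 7.92 in KO diaphragm. The groups overlapped, and the difference of 0.57 (SE 0.169, adjusted p = 0.0207) was 0.37 without WT-labelled replicate 2 (adjusted p = 0.0926), 0.50 without KO replicate 1 (adjusted p = 0.0672) and 0.51 without KO replicate 2 (adjusted p = 0.0775). *Cox7a1*, a muscle subunit, was at 11.33 on each array labelled WT diaphragm and at 11.96, 11.98 and 12.13 in KO diaphragm (0.70, SE 0.0909, adjusted p = 5.68e-05). *Cox4i1* had a difference of 0.53 and *Cox10*, an assembly factor, of 0.09 (adjusted p = 0.49). Of 20 genes of mitochondrial fusion, fission and biogenesis, 7 were higher and 1 lower, with a median of 0.10, and 4 were higher without KO replicate 3; between KO diaphragm and KO gastrocnemius 3 were higher. *Mfn1* (0.62) and *Opa1* (0.39), of fusion, were higher, as was *Ppargc1a*, the coactivator that drives mitochondrial biogenesis, at 9.62, 8.66 and 8.40 on the arrays labelled WT diaphragm, against 10.57, 9.98 and 9.46 in KO diaphragm (1.11, SE 0.293, adjusted p = 0.0111). The groups overlapped, and without WT-labelled replicate 3 the difference was 0.86 (adjusted p = 0.0601). *Ucp1* had a difference of 0.06 (adjusted p = 0.769) and lay between 3.93 and 4.55 on all 12 arrays, whereas *Cidea*, a droplet protein of brown fat, was higher by 1.44. *Ucp2* and *Fndc5* had no value here.

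Other genes with large differences belonged to none of these lists. *Tecrl*, an endoplasmic reticulum protein of heart muscle, was at 4.10, 4.10 and 4.14 on the arrays labelled WT diaphragm, against 8.72, 8.36 and 8.81 in KO diaphragm (4.52, SE 0.244, adjusted p = 1.5e-08). *Mss51*, a mitochondrial factor of glycolytic muscle, was spread on the arrays labelled WT diaphragm, at 8.47, 11.78 and 8.45, but lay above KO diaphragm (5.28, 5.69 and 5.52) on each (-4.07, SE 0.636, adjusted p = 2.58e-04). Without WT-labelled replicate 2 the difference was -2.97. The related methyltransferases *Mettl21c* and *Mettl21e* moved in opposite directions, by -3.98 (SE 0.212) and 3.30 (SE 0.462). *Slc38a4*, an amino acid transporter, was lower (-3.45), as were *Mylk4* (-3.37), *Tlcd4* (-3.46) and *Tspan8* (-3.26), and *Pkhd1l1* was higher (3.72).

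Of 7 lymphatic endothelial markers, 6 were higher and 1 lower, with a median of 1.33. *Mmrn1*, a matrix protein of lymphatic vessels, was at 4.71, 5.28 and 4.76 on the arrays labelled WT diaphragm, against 8.16, 8.50 and 8.27 in KO diaphragm (3.39, SE 0.203, adjusted p = 4.01e-08). *Lyve1* had a difference of 1.49 and *Flt4*, the receptor for the lymphatic growth factor *Vegfc*, of 1.40; *Vegfc* itself was higher by 1.41. *Stab2* was lower (-0.39). Of 14 general endothelial markers, 11 were higher and none lower, with a smaller median of 0.59, and 11 of 18 hypoxia and angiogenic factors were higher, with *Angpt1* (2.11) and *Kdr* (1.55) leading. Of 13 fibroblast and mesenchymal progenitor markers, 8 were higher and none lower. *Dpp4*, of fibroblast progenitors, had a difference of 1.68 and *Lum* of 1.46. Of 19 collagen genes, 7 were higher and 1 lower. Of 13 tendon and cartilage markers, 1 was higher and 2 lower, with a median of -0.31; the number lower was 0 without KO replicate 1 or WT-labelled replicate 3, 1 without KO replicate 3 or WT-labelled replicate 1, and 6 without KO replicate 2. *Col14a1* was at 7.24, 7.37 and 6.89 on the arrays labelled WT diaphragm, against 9.19, 9.65 and 9.53 in KO diaphragm (2.29, SE 0.178, adjusted p = 5.35e-07). With KO gastrocnemius as the reference, 6 of the lymphatic, 11 of the endothelial, 13 of the hypoxia and angiogenic, 8 of the fibroblast, 6 of the collagen and 2 of the tendon genes were higher. Each of these counts stood beside the mesothelial difference, whose part in them was not tested.

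White adipocyte markers were higher in 10 of 12 cases and lower in 1, with the same counts between KO diaphragm and KO gastrocnemius. As a mean, the list was between 7.50 and 7.70 on the arrays labelled WT diaphragm, at 8.61, 9.55 and 8.16 in KO diaphragm, and between 7.47 and 8.37 on the gastrocnemius arrays, so that KO replicate 3 lay below the highest gastrocnemius array. *Adipoq*, adiponectin, was at 7.69, 9.15 and 6.83 in KO diaphragm and at 5.95, 5.82 and 5.35 on the arrays labelled WT diaphragm (2.19, SE 0.415, adjusted p = 0.0012), and *Scd1* at 10.79, 12.20 and 10.31 against 9.28, 8.82 and 8.37 (2.28). Replicate 2 was the highest KO array for both. *Car3*, a carbonic anhydrase of slow muscle and fat, was lower (-1.04). Of 9 liver markers 1 was called, and none without KO replicate 2 or without WT-labelled replicate 1 or 3.

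The list of B cell and plasma cell markers, with 10 of 13 higher and a median of 0.75 (-0.04 over all genes), had means of 5.15, 6.31 and 5.97 in KO replicates 1, 2 and 3 and of 4.63 to 4.66 on the arrays labelled WT diaphragm. *Jchain*, the chain that joins secreted IgA and IgM, was at 3.73, 10.73 and 10.07 in KO diaphragm and at 3.70, 3.57 and 3.60 on the arrays labelled WT diaphragm. Its difference of 4.55 (SE 1.19, adjusted p = 0.0104) therefore rested on KO replicates 2 and 3, and was 3.28 without replicate 2 (adjusted p = 0.0547) and 3.61 without replicate 3 (adjusted p = 0.0515). *Igha*, the IgA heavy chain, was at 4.94, 10.52 and 9.26 (3.83) and the light chain segment *Igkv4-91* at 3.29, 8.62 and 6.80 (3.21). The largest positive difference of all named genes, 5.09, was that of another kappa light chain segment, at 4.41, 11.04 and 11.46 in KO diaphragm. On replicate 1 these plasma cell transcripts were within 1 of the arrays labelled WT diaphragm, whereas on the other 2 they exceeded them by 3 or more. *Ms4a1*, which encodes CD20 of B cells before the plasma cell stage, was raised on all 3 arrays, at 5.67, 6.86 and 6.84 in KO diaphragm against 4.11, 3.90 and 3.78 on the arrays labelled WT diaphragm (the order of groups kept for the immune genes that follow; 2.53, SE 0.274, adjusted p = 1.17e-05). So was *Cxcl13*, the chemokine that draws B cells into follicles and into the fat clusters of body cavities, at 7.79, 10.09 and 9.41 against 5.24, 5.44 and 5.37 (3.74, SE 0.387, adjusted p = 7.62e-06). Among T cell and NK cell markers 4 of 14 were higher, 2 without KO replicate 2, with *Cd3g* at 4.20, 5.19 and 5.55 against 3.81, 3.83 and 3.76 (1.18). Between KO diaphragm and KO gastrocnemius 10 of the B cell and 7 of the T cell and NK cell markers were higher.

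Macrophage and dendritic cell markers were higher in 12 of 19 cases and lower in 1. The list mean was highest on KO replicate 2, but its genes *Lyz2* and *Adgre1* were highest on KO replicate 1. *Lyz2*, lysozyme of myeloid cells, was at 11.38, 11.00 and 9.83 against 8.89, 7.76 and 8.20 (2.45, SE 0.327, adjusted p = 6.7e-05). *Adgre1*, a surface marker of macrophages, was at 8.14, 7.96 and 7.10 against 6.07, 5.39 and 5.74 (2.00). *Itgam*, which is not in this list, was at 8.80, 7.85 and 6.87 against 5.999, 5.66 and 5.76 (2.03). Of 8 genes of MHC class II, 5 were higher, with a median of 1.37. *H2-Ab1* was at 9.22, 10.32 and 10.25 against 8.08, 7.32 and 7.66 (2.24). *Cbr2*, a gene of resident macrophages of muscle, was lower (-0.83, and -1.26 between KO diaphragm and KO gastrocnemius). Mast cell and granulocyte markers were higher in 6 of 14 cases, or in 4 without KO replicate 2 or WT-labelled replicate 3, with the mast cell protease *Cpa3* at 1.54.

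Complement genes were higher in 11 of 13 cases, with a median of 1.49, and the 3 KO arrays had list means of 7.83, 8.27 and 7.95. The 1 lower gene lost its call when any 1 array of the comparison other than KO replicate 1 was left out. *C4b* was at 9.21, 9.73 and 9.23 in KO diaphragm against 5.98, 6.41 and 5.45 on the arrays labelled WT diaphragm (3.44, SE 0.221, adjusted p = 7.42e-08). *Cfb*, factor B of the alternative pathway, had a difference of 2.89 and *C2* of 2.22. Interferon response genes were higher in 9 of 14 cases, but the KO arrays differed widely, with list means of 6.17, 6.40 and 7.89. *Gbp3* was at 7.82, 8.10 and 9.73 against 6.15, 6.04 and 6.24 (2.41, SE 0.441, adjusted p = 9.34e-04). *Ifit1* was at 6.02, 6.37 and 8.46 against 5.16, 5.14 and 5.03 (1.84, SE 0.559, adjusted p = 0.0241), and without KO replicate 3 its difference was 1.08 (adjusted p = 0.103); it also missed the threshold without any 1 of the arrays labelled WT diaphragm (1.80 to 1.86). Without KO replicate 3 or WT-labelled replicate 3, 5 of the 14 were called, without WT-labelled replicate 1, 6, and without KO replicate 1, 13. Replicate 3 of WT gastrocnemius had a list mean of 6.50, above those of KO replicates 1 and 2. In KO diaphragm against KO gastrocnemius, 11 of the complement and 9 of the interferon genes were higher. Of 18 chemokine genes, 7 were higher and 2 lower. The count of higher genes was 3 without WT-labelled replicate 2 or 3, 4 without KO replicate 2 or 3, and 9 without KO replicate 1. *Cxcl16* (1.18) was higher, and *Cxcl14* (-1.16) and *Ccl11* (-0.71) were lower.

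**Figure D3:**
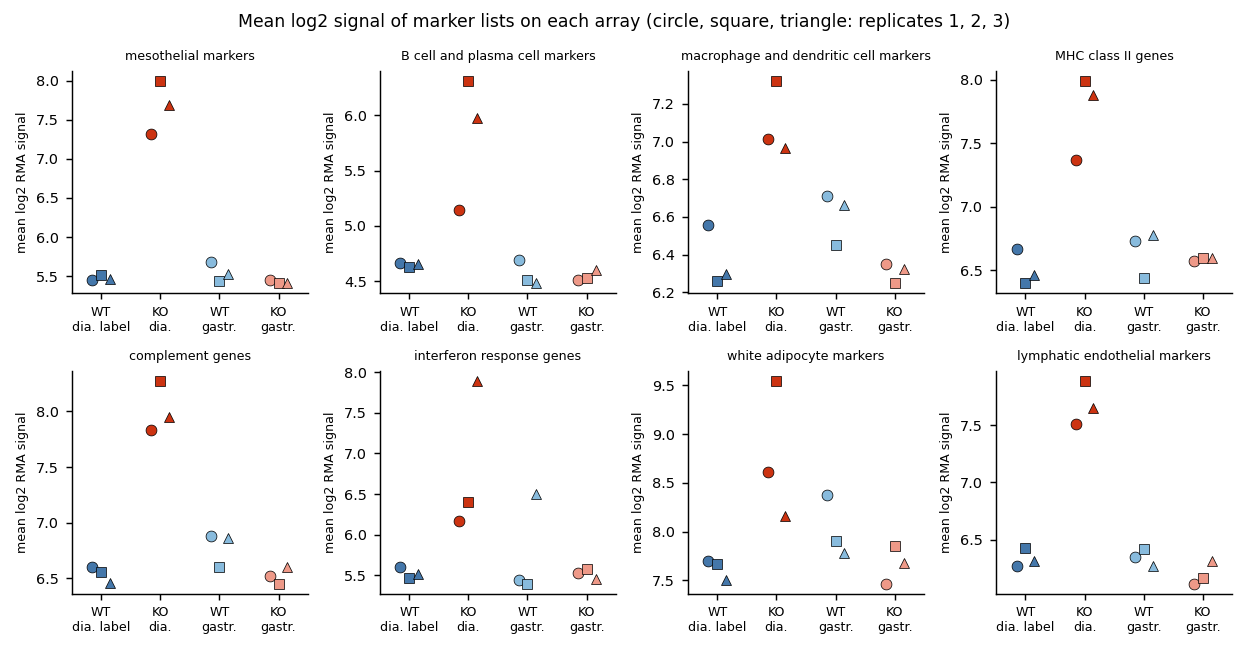
Mean log2 RMA signal (vertical axes) of 8 marker lists on each of the 12 arrays, grouped by label on the horizontal axes; circles, squares and triangles are replicates 1, 2 and 3. Mesothelial, complement and lymphatic lists are raised on each of the 3 KO diaphragm arrays, whereas the B cell list is lowest on replicate 1 (5.15), the adipocyte list highest on replicate 2 (9.55) and the interferon list highest on replicate 3 (7.89).

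Among genes of the circadian clock, 8 of 17 were lower and 2 higher in KO diaphragm, with a median of -0.37; between KO diaphragm and KO gastrocnemius 11 were lower and none higher. *Rora* was at 9.22, 9.88 and 9.28 on the arrays labelled WT diaphragm, against 7.75, 7.93 and 7.92 in KO diaphragm (-1.59, SE 0.164, adjusted p = 7.31e-06). *Bhlhe41* (-1.30), *Tef* (-1.18) and *Cry2* (-1.06), repressors and output factors of the clock, were lower. *Clock* (0.40) and *Nr1d1*, also a repressor, were called higher. The difference of *Nr1d1* was 0.43 to 0.54 over 16 alternatives, and its call was lost in 6 of them. *Clock* was at 0.34 (adjusted p = 0.0513) without WT-labelled replicate 3, when none of the 17 was higher, and 1 was higher without any other array except KO replicate 1. The time of day at which tissue was taken is not given in the sources used here. *Fkbp5* and *Tsc22d3*, which glucocorticoids are known to induce, were lower. *Fkbp5* was at 9.48, 9.42 and 9.74 on the arrays labelled WT diaphragm, against 7.98, 8.01 and 7.86 in KO diaphragm (-1.60, SE 0.271, adjusted p = 5.17e-04), and *Tsc22d3* had a difference of -1.32. Of the 17 atrophy and glucocorticoid response genes of the list, 4 were lower and 2 higher, and 2 were lower without KO replicate 2.

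Of 28 growth factor genes of muscle, 10 were higher, 2 lower and 16 not called. *Mstn*, myostatin, which restrains muscle mass, was at 9.30, 9.83 and 9.27 on the arrays labelled WT diaphragm, against 7.10, 6.002 and 7.07 in KO diaphragm (-2.75, SE 0.25, adjusted p = 2.25e-06), and its relative *Gdf11* had a difference of -1.15. These were the 2 lower genes. Of the 10 higher ones, *Igfbp6* (1.04), *Tgfb1* (1.02), *Igfbp4* (1.00) and *Fgf7* (0.95) had the largest differences. With KO gastrocnemius as the reference, *Mstn* had -3.05 and *Gdf11* -1.59, with 19 of the 28 higher and 2 lower. Proteasome genes were split by kind. Of 30, 9 were lower, all of the standard complex, with *Psmd4* (-0.67) and *Psmd1* (-0.54) the lowest. The 3 higher ones were those of the immunoproteasome, which replaces catalytic subunits in immune cells, led by *Psmb9* (1.13) and *Psmb8* (1.11). Between KO diaphragm and KO gastrocnemius 13 were lower and 3 higher. Of 17 cell division genes, 6 were higher and none lower, with *Mki67* at 4.71, 5.48 and 5.76 against 4.52, 4.02 and 3.90 (1.17). Of 13 imprinted genes, 9 were higher and 1 lower, with *Meg3* (1.21), *Mest* (1.10), *Sgce* (0.94) and *Grb10* (0.78) the highest and the growth inhibitor *Cdkn1c* lower (-0.49). Of 15 genes of the integrated stress response, 5 were higher and 4 lower; leaving out any 1 array of the comparison left 1 (without WT-labelled replicate 1) or 3 higher, and without KO replicate 2 or 3 or WT-labelled replicate 1, 2 were lower. *Asns*, asparagine synthetase, had a difference of 1.09 and *Chac1*, a glutathione-degrading enzyme, of -1.56.

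**Figure D4:**
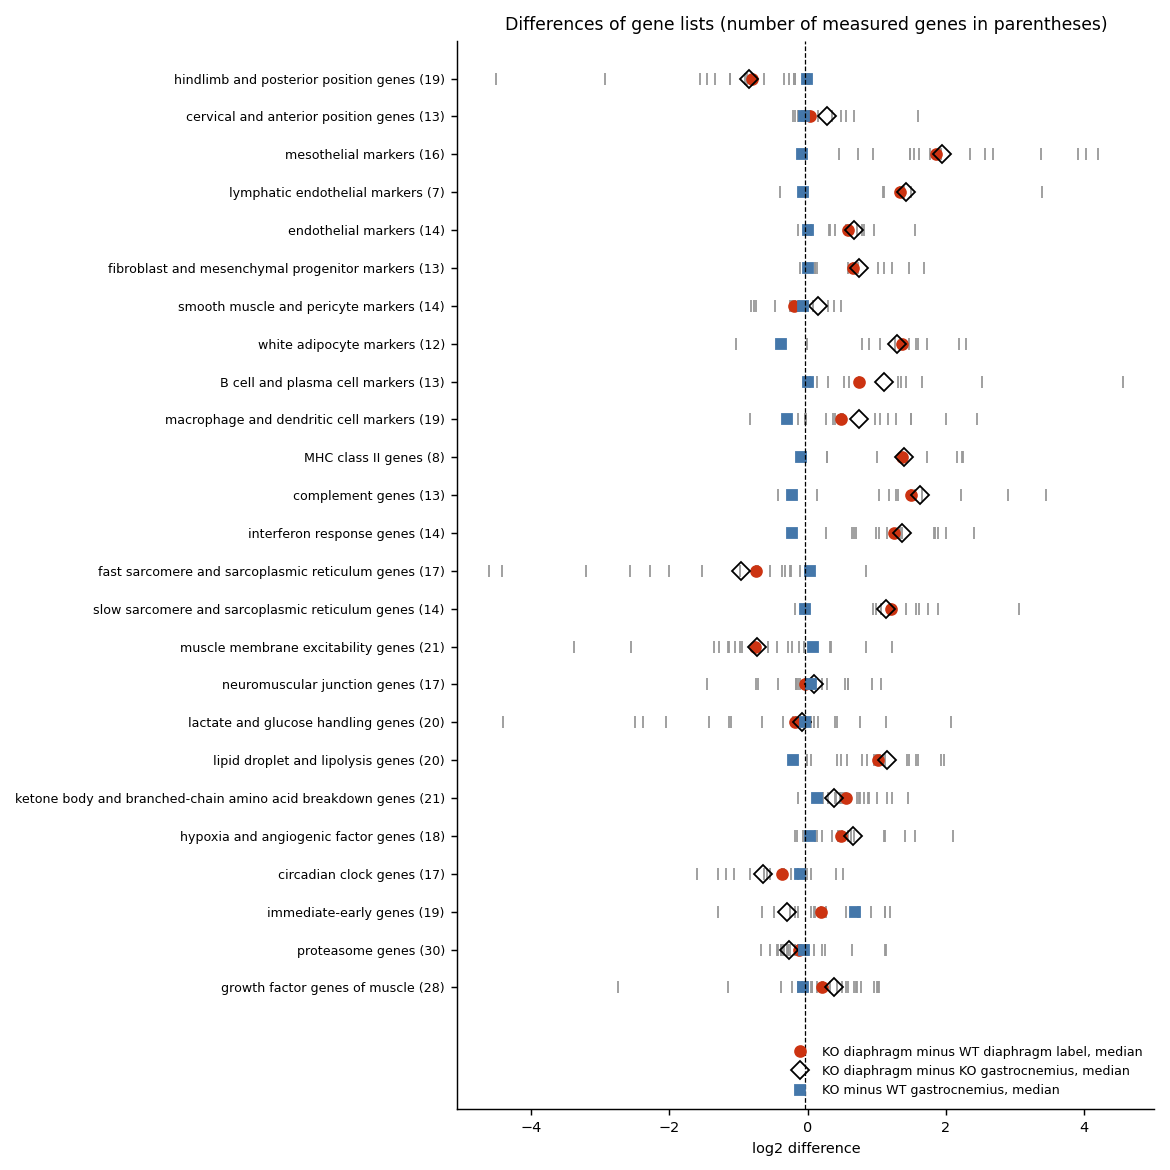
Log2 differences (horizontal axis) of the measured genes of the lists named on the vertical axis (number of genes in parentheses); grey ticks are single genes for KO diaphragm minus the arrays labelled WT diaphragm, and symbols are medians of that and of 2 other comparisons. The dashed line is the median of all genes, -0.04. In the lists with the largest medians, such as mesothelial markers at 1.85 and hindlimb position genes at -0.81, the open diamonds for KO diaphragm minus KO gastrocnemius lie close to the red points. The blue squares for KO minus WT gastrocnemius lie nearer to 0 there, the lowest at -0.39 for white adipocyte markers. Departures include the immediate-early genes, with a blue square at 0.69, and the smooth muscle markers, with a red point at -0.20 and a diamond at 0.15.

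The comparison of KO with WT gastrocnemius shares no array with that of the diaphragm label and called 118 genes, 81 higher (0.406%) and 37 lower (0.186%). Of these, 63 were also called in diaphragm (53.4% of the gastrocnemius calls and 1.15% of the diaphragm calls). They had the same direction for 48 (40.7% and 0.873%), of which 34 were higher and 14 lower, and opposite directions for 15. Besides *Cox6a2*, the gene with the largest shared difference was *Nnt*, the mitochondrial transhydrogenase, a gene known to be truncated in the C57BL/6J substrain. It was at 8.34, 8.04 and 8.73 on the arrays labelled WT diaphragm, against 11.86, 11.67 and 11.92 in KO diaphragm (3.45, SE 0.157, adjusted p = 2.57e-09), and higher by 1.91 in KO gastrocnemius (adjusted p = 6.82e-05). Of the 48 genes, 14 (29.2%), the deleted *Cox6a2* itself included, lie on chromosome 7, against 8.73% of all genes with a position. Among them were *Trim12a*, at 4.96, 5.27 and 4.92 against 2.90, 3.74 and 3.46 in KO diaphragm (-1.69, and -1.75 in gastrocnemius), *Tpbgl* (-2.16 and -1.07), *Hddc3* (1.01 and 1.55) and *Cacng7* (-1.39 and -0.93). On another chromosome, the receptor phosphatase *Ptprm* had differences of 1.05 and 0.85. Of 23 candidate genes listed for differences between strains, near *Cox6a2* or elsewhere, 5 were higher (21.7%) and 4 lower (17.4%) in diaphragm. Over all genes, 16.3% were called higher and 11.2% lower. The list holds *Cox6a2* itself among its lower genes and *Nnt* among its higher ones. Whether strain background moves with the shared or the candidate genes was not tested, as the arrays hold no genotype.

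Immediate-early genes, which respond within minutes to stress and handling, were in part shared as well. *Fos* was at 6.06, 6.63 and 6.59 on the arrays labelled WT diaphragm, against 7.40, 7.24 and 8.21 in KO diaphragm (1.19, SE 0.239, adjusted p = 0.00178), and higher by 2.21 in KO gastrocnemius. *Dusp1* had differences of 1.11 and 1.17. Of 19 such genes 7 were higher and 2 lower in diaphragm, and 5 were higher in gastrocnemius. The 2 lower ones were 1 without KO replicate 1 or WT-labelled replicate 1 or 2, and none without KO replicate 2. In KO diaphragm against KO gastrocnemius, none of the 19 was higher and 4 were lower. The chaperone *Dnajb1* was higher in both (0.63 and 0.61). Opposite directions were held by *Ampd1* (-1.50 and 0.54) and *Gdap1*, a protein of the outer mitochondrial membrane (-1.87 and 1.51), the latter chosen after its values had been seen. By a test of the interaction, KO minus WT differed between the muscle labels for 2958 genes (14.8%). The arrays labelled WT diaphragm enter that test, so that it, too, rests on what they hold.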

How the data were processed

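RNA of 12 muscle samples was hybridised to Mouse Gene 1.0 ST arrays, 3 arrays for each of 4 groups given by genotype and tissue in the labels. The deposited values are log2 signals that the authors made with RMA in Affymetrix Expression Console; the version is not given in the sources used here. They were used without further scaling. Each gene was taken from its brightest probe set with 1 symbol: of 35556 probe sets, 21789 had 1 symbol, 1621 several and 12146 none listed, which left 19938 genes, 999 of them with more than 1 probe set. Array medians lay between 5.64 and 5.73, and the number of arrays limits the precision.

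Differences were tested with limma 3.58.1 in R 4.3.3, in 1 model of the 4 group means, with Benjamini-Hochberg adjustment over all genes at 0.05. Tested on simulated data of the diaphragm comparison, with 19938 genes, the model recovered 92 of 100 genes changed by 1 and 50 of 100 changed by 0.5 on the log2 scale, with 8 false calls. The simulation changed far fewer genes than were called in the data and gave each gene the same normal spread on all arrays. Its figures therefore do not carry over to the real comparison. Nothing but the labels says that the samples came from separate mice, so p-values measure the spread between these samples.

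The members and gene lists were chosen with earlier results of these data known. Genes to name were taken by rule, though not all of them are printed: *Cox6a2*; the 15 highest and 15 lowest called genes whose arrays did not overlap, predicted genes skipped; genes named in the study's article; of each list, up to 4 called members with the largest differences and up to 2 in the opposite direction, or, for a list without calls, its 2 members of lowest p; and 8 genes called in the same direction in both muscles. Alternatives were another scaling, probe set rule, filter, set of arrays, test and replicate block, and leaving out each array. No value of the authors' own comparisons was used.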

Additional observations from a re-analysis of the deposited data

Results flagged for a closer look

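Whether KO minus WT differed between the muscle labels was tested for each gene as an interaction in limma, and it did for 2958 genes (14.8% of all genes). Many genes named above were chosen for a large difference under the diaphragm label, which enters this test. The share of them that passed is therefore partly set by that choice. Of 166 genes named above, 128 passed, 73 with a higher and 55 with a lower log2 difference under the diaphragm label than in gastrocnemius. Each value below is that gap, diaphragm label minus gastrocnemius. As the arrays labelled WT diaphragm resembled hindlimb muscle, muscle and genotype cannot be told apart in it. Groups of 3 arrays are too small for a search for outlying arrays. Among genes of body position and the mesothelium, the negative gaps were -4.59 for *Hoxc10*, -3.11 for *Hoxd8*, -1.77 for *Hoxd10*, -1.53 for *Hoxc9* and -0.78 for *Mir196a-2*. The positive gaps were 0.54 for *Gata4*, 0.64 for *Hoxc5*, 0.68 for *Hoxb4*, 0.73 for *Zfpm2*, 0.80 for *Hoxc4*, 1.46 for *Hoxa5*, 1.87 for *Wt1*, 3.59 for *Lrrn4*, 4.09 for *Upk1b*, 4.23 for *Upk3b* and 4.38 for *Gpm6a*. Among contractile genes and regulators of fiber type, the negative gaps were -4.61 for *Myh4*, -4.43 for *Actn3*, -3.31 for *Mybph*, -3.01 for *Eya4*, -2.01 for *Maf* and -0.80 for *Myh13*. Gaps above 0 were 0.74 for *Myh1*, 1.11 for *Esrrb*, 1.16 for *Prox1*, 1.65 for *Myh7*, 2.07 for *Sln* and 2.44 for *Casq2*. Among genes of excitability, the junction and myogenesis, the negative gaps were -3.61 for *Atp1b2*, -2.64 for *Cacng1*, -1.90 for *Musk*, -1.48 for *Jph1*, -1.17 for *Kcnc4*, -1.15 for *Myf6* and -0.65 for *Ache*. On the positive side stood 0.79 for *Atp1b1*, 0.91 for *Colq*, 1.13 for *Agrn*, 1.22 for *Kcnn3* and 1.41 for *Pax3*. Among metabolic genes, the negative gaps were -4.58 for *Smox*, -4.19 for *Slc16a3*, -2.77 for *Pfkfb3*, -2.59 for *Ucp3*, -2.49 for *Gpd2*, -2.40 for *Odc1*, -2.04 for *Ampd1*, -1.75 for *Pfkfb4* and -1.05 for *Gamt*. Positive gaps of this set were 0.43 for *Cox7a1*, 0.53 for *Mfn1*, 0.66 for *Sat1*, 0.83 for *Ckmt2*, 0.85 for *Mccc1*, 1.11 for *Oxct1*, 1.13 for *Bdh1*, 1.17 for *Slc16a1*, 1.32 for *Ppm1k*, 1.51 for *Plin3*, 1.53 for *Nnt*, 1.63 for *Ldhb*, 1.81 for *Cidea*, 2.26 for *Agpat2* and 2.50 for *Dgat2*. Among vessel, stroma and fat genes, the negative gaps were -1.23 for *Car3*, -0.79 for *Myh11*, -0.75 for *Tagln* and -0.45 for *Stab2*. The positive gaps were 0.94 for *Scd2*, 1.19 for *Kdr*, 1.31 for *Flt4*, 1.43 for *Vegfc*, 1.44 for *Lum*, 1.64 for *Angpt1*, 1.82 for *Lyve1*, 1.82 for *Dpp4*, 2.40 for *Col14a1*, 2.85 for *Adipoq* and 3.37 for *Mmrn1*. Among immune genes, the negative gaps were -1.39 for *Cxcl14* and -0.84 for *Ccl11*. Gaps above 0 were 1.06 for *Cxcl16*, 1.28 for *Psmb8*, 1.30 for *Cpa3*, 1.34 for *Psmb9*, 1.47 for *Cd3g*, 2.33 for *Adgre1*, 2.33 for *Itgam*, 2.35 for *H2-Ab1*, 2.37 for *Ms4a1*, 2.40 for *C2*, 2.69 for *Gbp3*, 2.97 for *Lyz2*, 3.09 for *Cfb*, 3.82 for *Cxcl13* and 4.11 for *C4b*. Among clock, hormone and growth genes, the negative gaps were -2.77 for *Mstn*, -1.48 for *Tsc22d3*, -1.43 for *Rora*, -1.38 for *Chac1*, -1.36 for *Gdf11*, -1.31 for *Fkbp5*, -1.27 for *Bhlhe41*, -0.86 for *Tef*, -0.55 for *Psmd4*, -0.54 for *Cdkn1c* and -0.48 for *Psmd1*. On the positive side stood 0.54 for *Grb10*, 1.01 for *Sgce*, 1.13 for *Igfbp4*, 1.19 for *Mki67*, 1.23 for *Asns*, 1.27 for *Tgfb1*, 1.40 for *Fgf7* and 1.43 for *Igfbp6*. Among the remaining genes, the negative gaps were -4.74 for *Mss51*, -4.05 for *Mettl21c*, -3.89 for *Slc38a4*, -3.56 for *Tlcd4*, -3.38 for *Gdap1*, -3.04 for *Tspan8*, -2.86 for *Mylk4*, -1.09 for *Tpbgl*, -0.83 for *Irs1*, -0.82 for *Rcan1* and -0.46 for *Cacng7*. Positive gaps of this set were 3.85 for *Pkhd1l1* and 4.21 for *Tecrl*.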

How the results depend on the processing

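The diaphragm counts, 3258 higher and 2238 lower, were 1054 and 935 with the methods' t-test after Benjamini-Hochberg adjustment (3276 and 3171 unadjusted), and centring gave 3836 lower. The 118 calls between KO and WT gastrocnemius became 69 with only the compared arrays, 217 after centring, 77 without the arrays labelled WT diaphragm (an alternative chosen after seeing the data), and 2708 unadjusted and 0 adjusted with the methods' t-test, against which limma called 118. Between KO diaphragm and KO gastrocnemius 5767 calls became 3478 with the adjusted t-test. Leaving out 1 array gave 2642 to 3348 higher, 1583 to 2344 lower, 32 to 147 gastrocnemius, 4559 to 5930 KO diaphragm minus KO gastrocnemius and 2354 to 3014 interaction calls, and a *Cox6a2* difference of -5.06 to -4.91. The lowest gastrocnemius count was without KO gastrocnemius replicate 1. The cause of these shifts was not tested.

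With a fixed replicate block, 3230 genes were higher and 2162 lower in KO diaphragm, with 93 gastrocnemius calls, and with a random block 3183, 2126 and 97. Same-numbered arrays correlated at -0.096 to 0.161 in their deviations, and differently numbered ones at -0.229 to 0.173. With 3 arrays per group these values cannot decide whether the numbers pair the arrays, and the labels do not say. Neither block ended the call of any of 257 genes named or taken by the naming rule, but the adjusted t-test left only 134 of them on their side of the threshold. The unadjusted t-test ended the call of 30, trended robust eBayes and the compared arrays alone 10 each, quantile scaling 5, centring 3 and leaving out 1 array 7 to 21. The genes called higher with the adjusted t-test were 12 mesothelial (16 in limma), 2 B cell (10), 1 adipocyte (10) and none of the interferon list (9). The filter on dim genes left 8 mesothelial genes and 1 B cell gene called, as it removes dim members from the test. All called genes among the 257 kept their direction, whereas *Ucp1*, *Mir10a* and *Mir196a-1*, which were not called and lay near 0, changed sign. Other called genes were not followed in this way. Differences of dim probes can be compressed, and 3 arrays per group limit what small differences can show.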
